A study of Homo sapiens with 8 samples.

Results

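The change in gene expression between 24 and 48 h of exposure to KI696 was measured in Calu-6 cells. The tested set held 13213 of the 14535 genes with a symbol in the deposited table, those with at least 1 CPM (reads of a gene scaled to the size of its library) in at least 2 of the 8 libraries of the series. Calu-6 is an established human line grown out of a lung cancer, and the labels give it as non-small cell lung cancer of wild-type genotype. The comparison set 2 poly(A) RNA libraries of cells kept in 1 µM KI696 for 48 h against 2 libraries of cells kept in 1 µM KI696 for 24 h. The other 4 libraries came from Calu-6 cells given the vehicle, DMSO, for 48 h (2 libraries) or 24 h (2 libraries), and they gave the change over the same interval without the compound. All cells were held in RPMI-1640 medium with fetal bovine serum in 6-well plates, so compound and time are the only labelled variables and 1 line stands for the tumour type. Whether the paired libraries of one condition were grown apart is not in the labels, so the p-values measure the spread between these libraries, which may be technical. Each condition's libraries are named A and B by column order.

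NRF2, encoded by NFE2L2, is a transcription factor that is bound by the adaptor KEAP1, ubiquitinated and degraded by the proteasome in unstressed cells. KI696 is a small molecule that occupies the NRF2-binding face of KEAP1, and NRF2 that escapes KEAP1 enters the nucleus, pairs with small MAF proteins and binds antioxidant response elements beside genes for quinone reduction, glutathione synthesis, thioredoxin reduction, NADPH supply and iron storage. Many lung tumours carry mutations in this pathway and keep it permanently active.

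Before the comparison, the libraries themselves were compared. The KI696 libraries held 7273973 and 10738749 reads in genes at 48 h, against 8161520 and 6974235 at 24 h, and over all 8 libraries 3 reads corresponded to 0.213 to 0.428 CPM. Chi-square per degree of freedom between libraries A and B was 3.64 in KI696 at 48 h, against 1.65 in KI696 at 24 h, where counting error alone gives about 1. In KI696 at 48 h, library A exceeded library B by at least 1 log2 unit in 555 genes and lay below it by as much in 74. Epithelial genes made up part of that split: EPCAM, a surface adhesion protein of epithelia, had 34.3 and 9.49 CPM at 48 h of KI696, against 6.61 and 12.3 CPM at 24 h. In 247 genes library A lay at least 1 log2 unit above library B both in KI696 at 48 h and in DMSO at 48 h. In bulk RNA, fewer cells of a type and less RNA per cell cannot be told apart.

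The line's label was set against marker genes. All 36 listed epithelial genes were in the table and summed to between 1685 and 2269 CPM in KI696 at 48 h, against 1520 to 1568 CPM in KI696 at 24 h, led by KRT18, a keratin of simple epithelia. VIM, the intermediate filament of mesenchymal cells, averaged 2510 CPM over the 4 KI696 libraries, so the cells carried both kinds of filament. Of 28 lung lineage genes 21 were in the table, led by ABCA3 at a mean of 58.5 CPM over the 4 KI696 libraries. Of the 21, 5 stayed under 1 CPM in all 4, and the surfactant gene SFTPB had no read in 3 of the 4. The 10 leukocyte markers in the table summed to 39.3 to 43.0 CPM in KI696 at 48 h, against 51.7 to 53.9 CPM at 24 h, mostly from the lysosomal gene CD68. The 15 fibroblast and endothelial markers in the table summed to 181 to 201 CPM at 48 h, against 147 CPM in both libraries at 24 h. They were led by ENG, at a mean of 59.5 CPM over the 4 KI696 libraries. Of the 15, 7 stayed under 1 CPM in all 4, and TEK was at 0 in all 4.

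Between 24 and 48 h of KI696, more genes rose than fell, and most changes were small. By limma's moderated test at a Benjamini-Hochberg adjusted p under 0.05, 1107 genes (8.38% of those tested) were higher at 48 h and 477 (3.61%) were lower. The median change of the called genes was 0.45 log2 units for those that rose and -0.35 for those that fell, and 151 rose and 35 fell by at least 1 log2 unit. Over all tested genes the median change was 0.04. The counts leaned on single libraries: 564 rose and 204 fell without library A of KI696 at 48 h, and 1142 and 412 without library B of KI696 at 48 h. They were 384 and 75 without library A of KI696 at 24 h, 215 and 43 without library B of KI696 at 24 h, and 124 and 28 when the variance was not allowed to depend on expression level. Scaling by median ratios gave 865 higher and 655 lower and quantile scaling 707 and 562, so the share of higher calls was 69.9% as deposited, 56.9% with median ratios and 55.7% with quantiles.

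The 10 largest increases among called genes, at a mean of at least 5 CPM and with no overlap between times, included FABP4, a fatty acid carrier and well-known target of the lipid receptor PPAR gamma. FABP4 had 383 and 289.7 CPM at 48 h of KI696, against 94.8 and 95.1 CPM at 24 h. Both 48 h libraries lay far above both 24 h libraries, a log2 difference of 1.81 (SE 0.11, adjusted p = 3.01e-06). With DMSO it had 1487 and 1676 CPM at 48 h, against 490.0 and 432 CPM at 24 h, a log2 difference of 1.78. The 2 time changes of FABP4 differed by 0.03 (adjusted p = 0.946), and its KI696 libraries lay below its DMSO libraries at both times.

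AGR2, a disulfide isomerase of the endoplasmic reticulum in secretory epithelia (chr7:16791811-16833433, minus strand, GRCh38), was the other gene of these 10 whose call held without any single library. It had 14.2 and 9.98 CPM at 48 h of KI696, against 3.43 and 3.71 CPM at 24 h, a log2 difference of 1.67 (SE 0.16, adjusted p = 0.000117). With DMSO AGR2 had 37.9 and 35.8 CPM at 48 h, against 26.8 and 27.7 CPM at 24 h, and its change with KI696 exceeded its change with DMSO by 1.24 (adjusted p = 0.0285). AGR2 stayed below its DMSO level in every KI696 library at both times. That difference of the changes was no longer called without library A or library B of KI696 at 24 h.

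The other 8 genes lost their calls when 1 library was left out. BASP1, a membrane-bound signalling protein, had 16.4 and 5.62 CPM at 48 h of KI696, against 1.84 and 0.285 CPM at 24 h, a log2 difference of 3.24 (adjusted p = 0.00547), which was 2.25 and not called without library B of KI696 at 24 h. DHRS2, a short-chain dehydrogenase, had 60.6 and 20.3 CPM at 48 h, against 5.51 and 5.56 CPM at 24 h. Its log2 difference of 2.61 was 2.61 without library A and 2.62 without library B of KI696 at 24 h, neither called. IFITM1, an interferon-inducible membrane protein, had 10.4 and 6.10 CPM, against 1.47 and 2.71 CPM at 24 h, and its 1.87 was 1.48 and not called without library A of KI696 at 24 h. These 3 genes were higher in both 48 h libraries than in both 24 h libraries, with library A the higher of the 48 h pair each time.

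The remaining 5 were epithelial or membrane genes whose 48 h level came mostly from library A. CDH1, E-cadherin of adherens junctions (chr16:68737225-68835548, plus strand), had 29.02 and 4.46 CPM at 48 h of KI696, against 1.10 and 2.99 CPM at 24 h. Its log2 difference of 2.49 (adjusted p = 0.0448) was 1.17 and not called without library A of KI696 at 48 h. Without the same library the differences of CDH3 (P-cadherin), OSMR (the oncostatin M receptor), SFN (a 14-3-3 protein of epithelia) and SCNN1A (a sodium channel subunit) were 1.22, 1.21, 1.34 and 0.47, none called, against 2.44, 2.43, 1.93 and 1.69 with it. All 5 also lost the call without library A or library B of KI696 at 24 h. Without A they were 1.86 (CDH1), 2.04 (CDH3), 1.53 (OSMR), 1.97 (SFN) and 1.45 (SCNN1A), and without B 3.12, 2.83, 3.32, 1.89 and 1.93 in the same order. Of the 151 genes called higher by at least 1 log2 unit, 44 had library A at least 1 log2 unit above library B at 48 h.

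**Figure D1:**
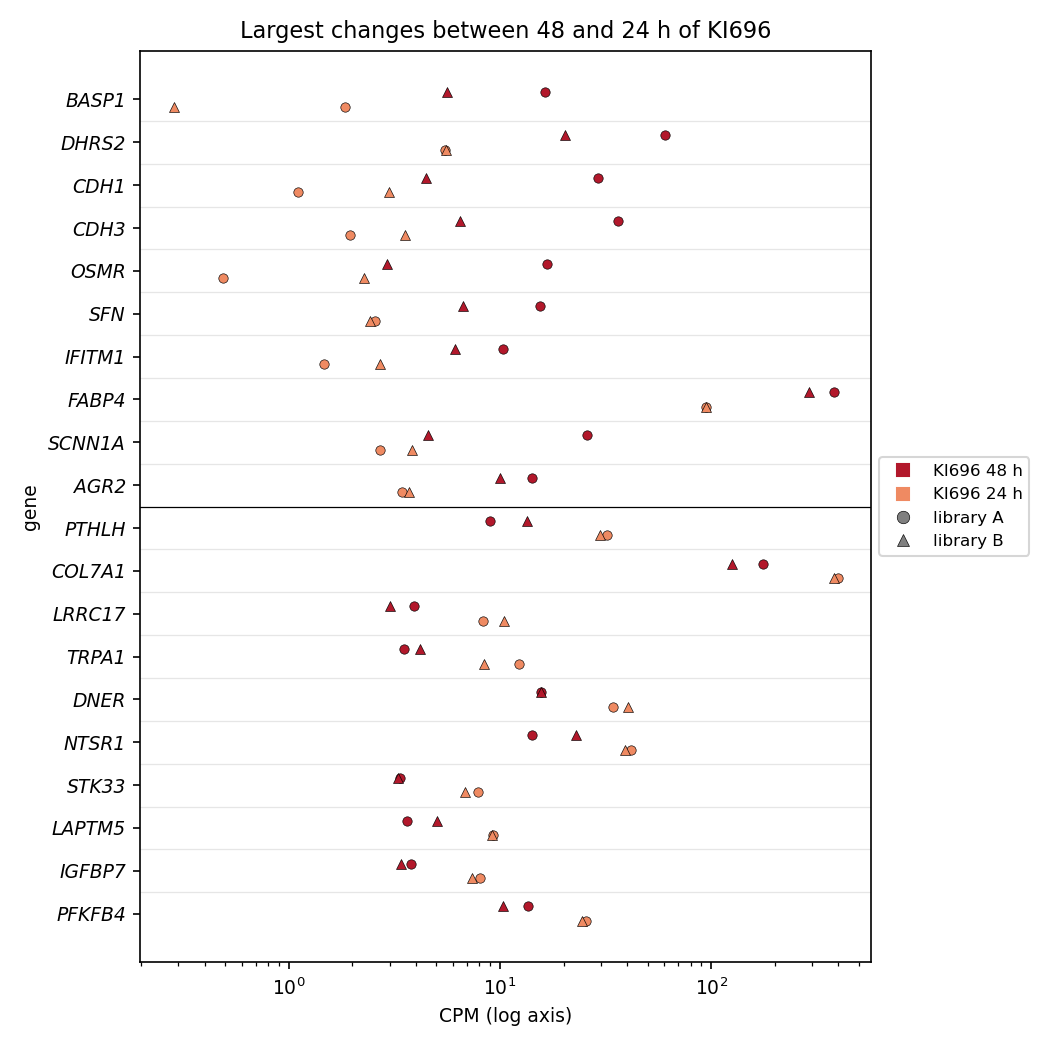
Levels of the 10 genes with the largest increase (upper block) and the 10 with the largest decrease (lower block) between 24 and 48 h of KI696, in CPM on a log axis; circles are library A and triangles library B. The 48 h libraries of CDH1 stand apart at 29.02 and 4.46 CPM, while those of DNER lie together at 15.7 CPM.

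Among the 10 largest decreases, 5 kept their call without any single library: PTHLH, LRRC17, DNER, IGFBP7 and PFKFB4. PTHLH encodes parathyroid hormone-related protein, a secreted factor made by many carcinomas. It had 8.97 and 13.5 CPM at 48 h of KI696, against 32.2 and 29.6 CPM at 24 h, a log2 difference of -1.47 (SE 0.21, adjusted p = 0.00111). DNER, a transmembrane Notch ligand (chr2:229357629-229714558, minus strand), had 15.7 and 15.7 CPM at 48 h, against 34.3 and 40.2 CPM at 24 h, a log2 difference of -1.23 (SE 0.11, adjusted p = 7.46e-05). PFKFB4, which sets the level of the glycolytic activator fructose 2,6-bisphosphate, had 13.6 and 10.4 CPM, against 25.6 and 24.4 CPM at 24 h, a log2 difference of -1.06. In all 3 the 48 h pair lay below the 24 h pair, and with DMSO their changes were -0.68, -0.57 and -0.81 in the same order.

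LRRC17 and IGFBP7 encode secreted proteins, the second a binder of insulin-like growth factors, and for both the change with KI696 was called lower than that with DMSO with all libraries included. LRRC17 (chr7:102912991-102944949, plus strand) had 3.93 and 3.003 CPM at 48 h of KI696, against 8.33 and 10.4 CPM at 24 h, while with DMSO it had 12.5 and 14.8 CPM at 48 h, against 12.7 and 14.4 CPM at 24 h. Its KI696 change of -1.38 (SE 0.20, adjusted p = 0.00116) was lower than its DMSO change by -1.38 (adjusted p = 0.0393). IGFBP7 had 3.79 and 3.39 CPM at 48 h of KI696, against 8.08 and 7.41 CPM at 24 h, and with DMSO 23.9 and 21.2 CPM at 48 h, against 17.8 and 17.9 CPM at 24 h. It fell with KI696 and did not overlap between times in either treatment, and the changes differed by -1.39 (adjusted p = 0.0145). Neither difference of the changes was called when any one of the 4 libraries at 24 h was left out, with no filter on low values or with no variance trend.

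The other 5 decreases were COL7A1 (anchoring fibril collagen, -1.39), TRPA1 (an irritant-sensing cation channel, -1.36), NTSR1 (the neurotensin receptor, -1.15), STK33 (a kinase, -1.08) and LAPTM5 (a lysosomal membrane protein, -1.06). Without library A of KI696 at 24 h none of the 5 was called, at -1.36, -1.09, -1.10, -0.99 and -1.05. COL7A1, NTSR1, STK33 and LAPTM5 also lost the call without library B of KI696 at 24 h, at -1.42, -1.21, -1.18 and -1.08. STK33 and LAPTM5 lost it without library A of KI696 at 48 h, at -1.10 and -0.84, and STK33 without library B of KI696 at 48 h, at -1.07.

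The change with KI696 was set beside the change with DMSO over the same interval. The changes share no library, but both tests used each gene's variance from the same fit to all 8 libraries, so their calls are not independent. With DMSO 699 genes (5.29%) were higher and 575 (4.35%) lower at 48 h than at 24 h. Of the genes that rose with KI696, 347 also rose with DMSO, 31.3% of the KI696 calls and 49.6% of the DMSO calls. Of those that fell with KI696, 128 also fell with DMSO, 26.8% of the KI696 calls and 22.3% of the DMSO calls. The 1107 genes that rose with KI696 had a median DMSO change of 0.21, beside 0.45 with KI696, and 887 of them had a positive DMSO change. The 477 that fell had a median DMSO change of -0.20, beside -0.35 with KI696, and 415 had a negative one. Over these 1584 genes Pearson's r between the changes was 0.51, and over all 13213 genes it was 0.08, as a description across genes that share their libraries.

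The test of the difference between the changes was stricter, as its error is that of 4 groups. The KI696 change was higher than the DMSO change in 89 genes (0.674%) and lower in 23 (0.174%). Of the 89, 75 had a positive change with KI696 and a negative one with DMSO, and 38 were called lower with DMSO and not called with KI696. Of the 23, 19 had a negative change with KI696 and a positive one with DMSO. These counts rested on single libraries, with 2 higher and 0 lower without library A of KI696 at 24 h and 1 and 0 without library B of KI696 at 24 h. They were 5 and 0 without library A of DMSO at 24 h, 3 and 0 without library B of DMSO at 24 h, 455 and 75 without library B of KI696 at 48 h, and 363 and 140 without library A of DMSO at 48 h. Leaving out library B of DMSO at 48 h gave 56 and 24, and library A of KI696 at 48 h 83 and 36. DDIT4 alone kept its called difference without each of the 4 libraries at 24 h in turn, so every other difference given below lost its call without at least 1 of them. At an unadjusted p under 0.05 in limma's test the difference was higher in 1478 genes and lower in 635.

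**Figure D2:**
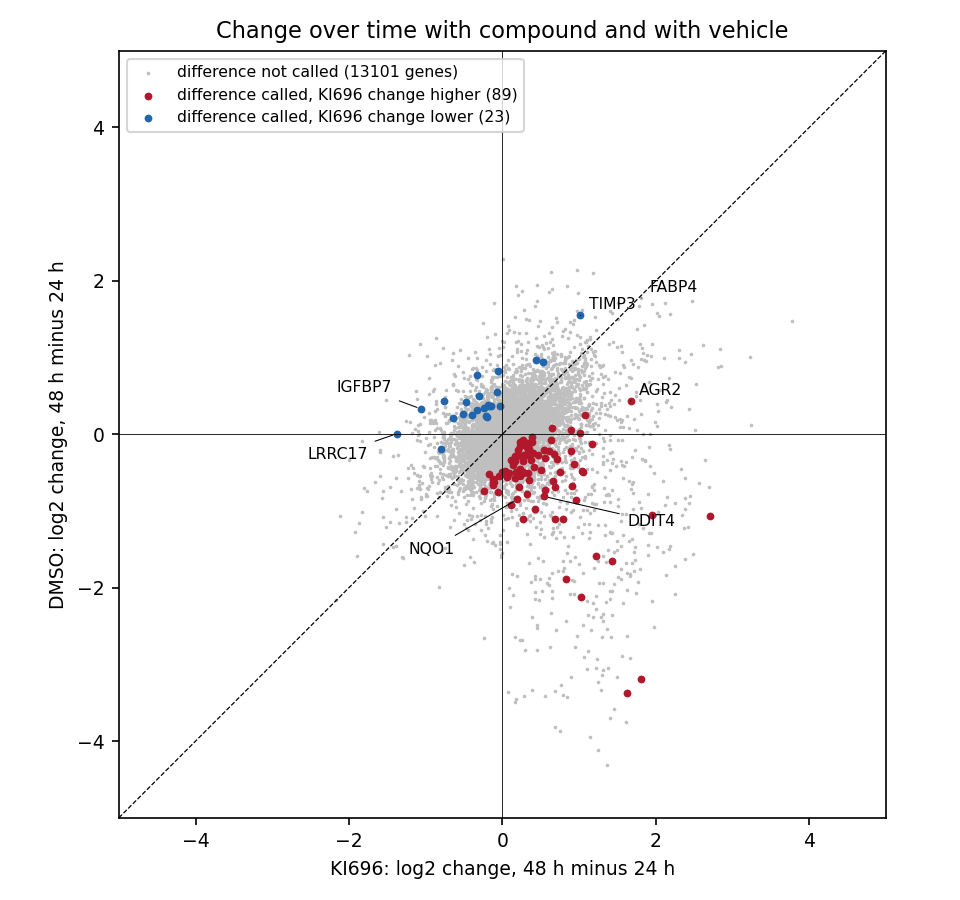
Change from 24 to 48 h of each tested gene with KI696 (x axis) and with DMSO (y axis), both in log2 units, with a dashed line of equal change; red points are the 89 genes whose KI696 change was higher than the DMSO change, blue points the 23 whose was lower, and grey points the 13101 others. FABP4 lies on the line of equal change, and most red points lie right of and below 0.

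TMEM156, a transmembrane protein, moved in opposite directions. It had 20.5 and 17.8 CPM at 48 h of KI696, against 9.92 and 9.41 CPM at 24 h, and with DMSO 13.7 and 16.6 CPM at 48 h, against 29.3 and 25.9 CPM at 24 h. It rose by 0.97 with KI696 and fell by 0.86 log2 units with DMSO, a difference of 1.83 (SE 0.20, adjusted p = 0.0022). Without library A or library B of KI696 at 24 h this was 1.86 or 1.79 and not called. FN1, fibronectin of the extracellular matrix, was chosen after its values were seen and had 918 and 701 CPM at 48 h of KI696, against 863 and 809 CPM at 24 h, and with DMSO 2747 and 2549 CPM at 48 h, against 1491 and 1487 CPM at 24 h. The KI696 libraries of FN1 overlapped between times while the DMSO libraries did not, and the changes differed by -0.89 (adjusted p = 0.0105).

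Most direct targets of NRF2, like most tested genes, stood at close to the same level at both times. The change was under 0.25 log2 units in size in 25 of 37 targets and in 8623 of all 13213 genes. Of 37 tested genes of the NRF2 list, 3 rose and 3 fell between 24 and 48 h of KI696, beside 8.38% and 3.61% of all genes. The median change was -0.00 beside 0.04 for all genes. The mean of the 37 genes was 7.63 and 7.67 log2 CPM at 48 h of KI696, against 7.62 and 7.63 log2 CPM at 24 h, and their summed level was 22632 and 24581 CPM at 48 h, against 23334 and 23536 CPM at 24 h. The 95% interval of the change lay within 0.5 log2 units of 0 for 25 of the 37 (67.6%), beside 7552 of all 13213 genes (57.2%). With DMSO the mean of the list was 5.81 and 5.46 log2 CPM at 48 h, against 5.83 and 5.83 at 24 h, with 1 member higher, 10 lower and a median change of -0.15.

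Within the list, GCLC, the catalytic subunit of glutamate-cysteine ligase in glutathione synthesis, had 317 and 345 CPM at 48 h of KI696, against 329 and 335 CPM at 24 h. The 48 h libraries straddled the 24 h libraries, and the log2 difference of -0.00 had a 95% interval of -0.19 to 0.19. Its partner subunit GCLM had 190.0 and 221 CPM, against 219 and 233 CPM at 24 h, with an interval of -0.34 to 0.06. TXNRD1, cytosolic thioredoxin reductase, had 2192 and 2535 CPM, against 2338 and 2309 CPM at 24 h, with an interval of -0.16 to 0.20. In both the libraries of the 2 times overlapped, and for GCLC, GCLM and TXNRD1 the whole interval lay within 0.5 log2 units of 0. SRXN1, sulfiredoxin, had a log2 difference of -0.10 (interval -0.43 to 0.23). Wider intervals left more room for HMOX1, heme oxygenase, at 0.34 (-0.20 to 0.89), and for ALDH3A1, an aldehyde dehydrogenase, at 0.48 (-0.08 to 1.04).

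NQO1, the quinone reductase used as a standard readout of NRF2 (chr16:69706996-69726951, minus strand), had 1938 and 2273 CPM at 48 h of KI696, against 1824 and 1852 CPM at 24 h, and the change of 0.19 was not called (interval -0.03 to 0.41, adjusted p = 0.249). With DMSO it fell to 319.8 and 244 CPM at 48 h, against 521 and 486 CPM at 24 h, a log2 difference of -0.85. The 2 changes of NQO1 differed by 1.04 (SE 0.15, adjusted p = 0.00975). FTL, the ferritin light chain, behaved alike, with 5746 and 6234 CPM at 48 h of KI696, against 6099 and 6317 CPM at 24 h, and 1454 and 1204 CPM at 48 h of DMSO, against 2211 and 2257 CPM at 24 h, a difference of 0.70 (adjusted p = 0.012). The other 2 members with a called difference were TKT, transketolase, at 0.55, and BLVRB, biliverdin reductase B, at 0.76. No member had a called difference without library A or library B of KI696 at 24 h, or without library A or library B of DMSO at 24 h.

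Of the 3 members that rose, TKT and EPHX1 are given with their values, and then the 3 that fell. TKT (chr3:53224707-53256052, minus strand) had 1989 and 2114 CPM at 48 h of KI696, against 1734 and 1704 CPM at 24 h, a log2 difference of 0.25 (adjusted p = 0.0127). EPHX1, microsomal epoxide hydrolase, had 172 and 171 CPM, against 134 and 136 CPM at 24 h, a log2 difference of 0.34. In each gene both 48 h libraries lay above both 24 h libraries. SLC7A11, the cystine-glutamate antiporter (chr4:138164097-138242349, minus strand), had 293 and 349.8 CPM at 48 h, against 405 and 407 CPM at 24 h, and fell by 0.34 log2 units (adjusted p = 0.0211). SQSTM1, the autophagy receptor p62 that also binds KEAP1, had 1013 and 1024 CPM, against 1252 and 1212 CPM at 24 h, a change of -0.28. AKR1C1, an aldo-keto reductase whose reads may be shared with AKR1C2 and AKR1C3, had 66.9 and 64.6 CPM, against 111 and 101 CPM at 24 h, a change of -0.69. TKT also lost the call with quantile scaling, at 0.05 (adjusted p = 0.593), and without library B of KI696 at 48 h, at 0.21. The call was lost by SLC7A11 and EPHX1 without library A of KI696 at 48 h, at -0.22 and 0.34. None of the 6 calls held without library A or without library B of KI696 at 24 h, where the list had no call in either direction, while at an unadjusted p under 0.05 with all libraries 5 members were higher and 5 lower in limma's test.

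For the regulators themselves the differences were small. NFE2L2 had 149 and 155 CPM at 48 h of KI696, against 152 and 168 CPM at 24 h, a change of -0.08 (adjusted p = 0.481). KEAP1 had 285 and 279.8 CPM, against 321 and 301 CPM at 24 h, a change of -0.14 (adjusted p = 0.162). Of the 19 KEAP1 and NRF2 regulators tested, MAFF, a small MAF partner, rose by 0.95, and NFE2L3, a relative of NRF2, rose by 0.48, while SQSTM1, named above, fell. These 2 rises and 1 fall were near the shares of all genes (8.38% and 3.61%). Without library B of KI696 at 24 h, MAFF was 0.81 and NFE2L3 0.47, and neither was called. NFE2L3 was 0.50 and not called without library A of KI696 at 24 h. With DMSO NFE2L3 rose by 0.67, also called, and MAFF by 0.42, not called. Neither difference of the changes was called, at -0.18 for NFE2L3 and 0.53 for MAFF.

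**Figure D3:**
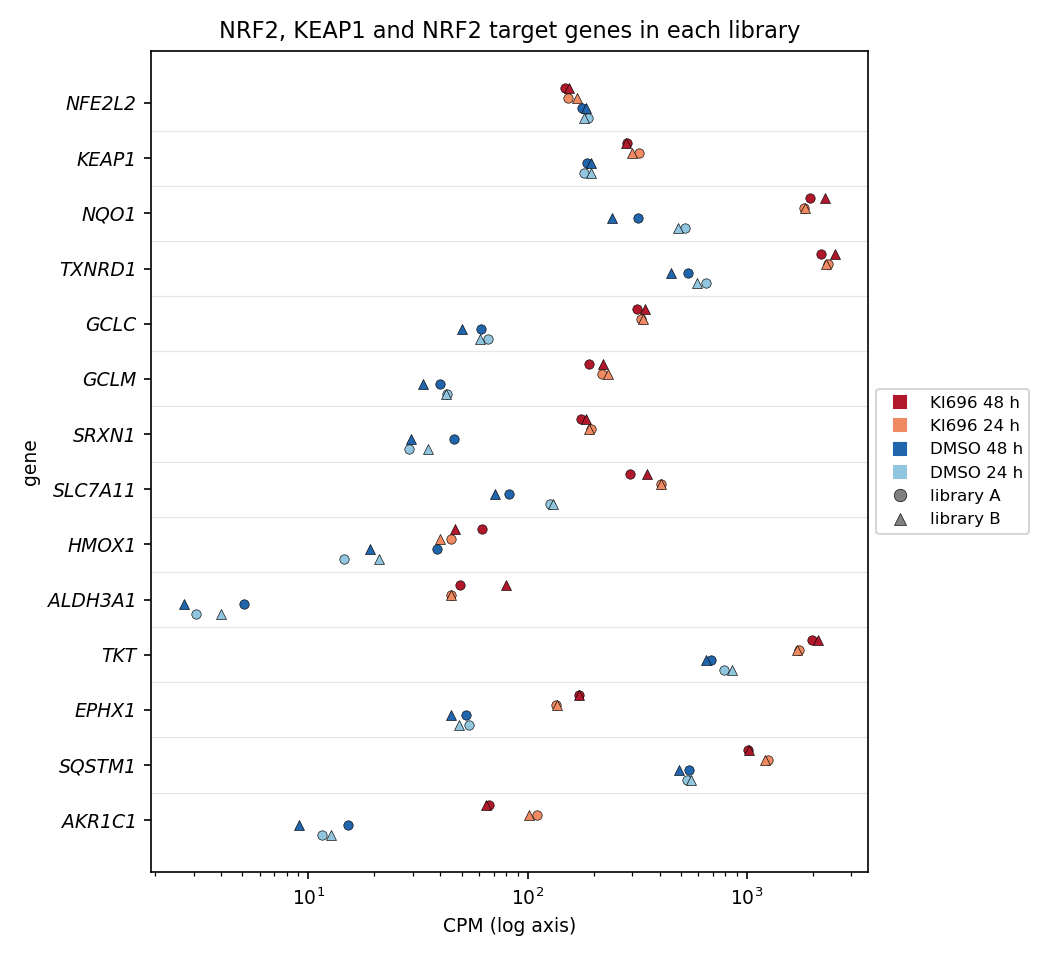
Levels of 14 NRF2 pathway genes in the 8 libraries, in CPM on a log axis, grouped by treatment and time; circles are library A and triangles library B. NQO1 stands at 1938 and 2273 CPM after 48 h of KI696, against 1824 and 1852 CPM after 24 h of KI696, and at 319.8 and 244 CPM after 48 h of DMSO, against 521 and 486 CPM after 24 h of DMSO.

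Ribosomal protein genes rose together. Of 54 tested genes for cytosolic ribosomal proteins, 52 were higher at 48 h of KI696 than at 24 h and 0 were lower, with a median change of 0.28 beside 0.04 for all genes and a range of 0.16 to 0.37. At an unadjusted p under 0.05 in limma's test, 54 were higher and 0 lower. Their mean was 10.12 and 10.09 log2 CPM at 48 h of KI696, against 9.86 and 9.79 log2 CPM at 24 h, and the sum was 68077 and 67984 CPM, against 57377 and 54748 CPM at 24 h. With DMSO the sum was 55224 and 55774 CPM at 48 h, against 54100 and 52734 CPM at 24 h, with 1 member higher and a median change of 0.05. The KI696 change exceeded the DMSO change in all 54 by sign, with a median of 0.22, and was called in 1. The 52 calls came to 4 without library B of KI696 at 24 h, 37 without library A of KI696 at 24 h, 35 without library A of KI696 at 48 h, 23 with quantile scaling (median change 0.16) and 0 without the variance trend, where the median stayed at 0.28.

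RPL3, a core protein of the large subunit (chr22:39312882-39320389, minus strand), had the highest change of the list. It had 2135 and 2129.5 CPM at 48 h of KI696, against 1682 and 1620.1 CPM at 24 h, a log2 difference of 0.37 (SE 0.05, adjusted p = 0.0011), and with DMSO 1936 and 1996 CPM at 48 h, against 1919.9 and 1826 CPM at 24 h. RPS14 of the small subunit had 1436 and 1481 CPM at 48 h of KI696, against 1203 and 1114 CPM at 24 h, a difference of 0.33. RPL32 had 1014 and 994 CPM, against 792 and 797 CPM at 24 h, a difference of 0.34. In each gene both 48 h libraries lay above both 24 h libraries, and the members not called were RPL22 at 0.16 (adjusted p = 0.0825) and RPS29 at 0.34 (adjusted p = 0.0624). The RPS14 difference was 0.28 and not called without library B of KI696 at 24 h. With quantile scaling the differences of RPL3 and RPS14 were 0.13 and 0.14, neither called, and with no variance trend RPL3, RPS14 and RPL32 were not called.

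Genes for ribosomal proteins typically begin transcription at a cytosine inside a run of pyrimidines, the terminal oligopyrimidine tract through which their translation is controlled. The 30 bases around the start (10 before and 20 from it, GRCh38.p14, RefSeq) are shown for 5 members to set this shared feature beside their change, with the pyrimidine run at the start in capitals where one was found.
RPL3 (chr22:39319604-39319633, minus strand): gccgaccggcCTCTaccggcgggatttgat
RPS14 (chr5:150449720-150449749, minus strand): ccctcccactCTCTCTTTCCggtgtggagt
RPS24 (chr10:78033853-78033882, plus strand): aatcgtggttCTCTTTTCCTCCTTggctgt
RPLP2 (chr11:809957-809986, plus strand): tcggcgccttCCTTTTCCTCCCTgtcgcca
RPL32 (chr3:12841546-12841575, minus strand): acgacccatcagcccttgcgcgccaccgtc
A cytosine followed by at least 4 pyrimidines at the annotated start was present in 27 of the 43 members with an entry (62.8%) and in 4.04% of all 27305 promoters of the same table. RPS24 changed by 0.29 and RPLP2 by 0.34. RPL3 has a run of 4 bases, under that length, and RPL32 has none at its annotated start. The match describes the letters of the window and is not a mapped start or a cause.

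Genes of the amino acid response, which the factor ATF4 drives when amino acids run short or the endoplasmic reticulum is stressed, rose in part. Of 43 tested members 10 were higher and 1 lower at 48 h of KI696, beside 8.38% and 3.61% of all genes. The median change was 0.19, and 38 changes were positive. With DMSO 1 was higher and 13 lower, with a median of -0.19, and the difference of the changes was called higher in 7 and had a median of 0.40 beside 0.04 for all genes. DDIT4, an inhibitor of mTORC1 signalling (chr10:72273920-72276036, plus strand), had 111 and 103 CPM at 48 h of KI696, against 74.3 and 71.6 CPM at 24 h, and with DMSO 56.4 and 48.3 CPM at 48 h, against 93.2 and 90.4 CPM at 24 h. The KI696 libraries of DDIT4 rose without overlap by 0.55 (SE 0.08, adjusted p = 0.00175) and the DMSO libraries fell by 0.81 log2 units, a difference of 1.36 (SE 0.12, adjusted p = 0.000391).

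ATF4 itself (chr22:39519695-39522685, plus strand) had 406 and 431 CPM at 48 h of KI696, against 328 and 331 CPM at 24 h, a log2 difference of 0.34 (adjusted p = 0.00221). With DMSO it had 267 and 258 CPM at 48 h, against 301 and 298 CPM at 24 h, and the changes differed by 0.53 (adjusted p = 0.00975). ASNS, asparagine synthetase, had 232 and 296 CPM at 48 h of KI696, against 216 and 204 CPM at 24 h, and the changes with KI696 and DMSO differed by 1.10 (adjusted p = 0.00575). PYCR1, the last enzyme of proline synthesis, was not on the list and was chosen after its values were seen. It had 89.4 and 89.5 CPM at 48 h of KI696, against 59.0 and 54.0 CPM at 24 h, and with DMSO 38.7 and 33.4 CPM at 48 h, against 56.7 and 53.4 CPM at 24 h, a difference of 1.27 (adjusted p = 0.000967). In ATF4, ASNS and PYCR1 the KI696 pair was higher at 48 h than at 24 h without overlap. Among list members with a called difference, TRIB3 (a pseudokinase, 1.03) and SLC7A5 (a large neutral amino acid carrier, 0.73) were not called with KI696 alone, at 0.11 and 0.17. The 10 higher calls came to 4 without library A and 2 without library B of KI696 at 24 h, and to 5 with 2 lower under median-ratio scaling. The 7 called differences came to 1 without library A and 1 without library B of KI696 at 24 h, and to 2 and 1 without library A and library B of DMSO at 24 h. DDIT4 was among those left in each of the 4 cases, with differences of 1.33 to 1.38, and PYCR1 lost its call without library B of KI696 at 24 h.

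Heat shock chaperones, which fold and refold proteins under the factor HSF1, mostly fell. Of 21 tested members 12 were lower and 1 was higher at 48 h of KI696, beside 3.61% and 8.38% of all genes. The median change was -0.22. With DMSO 4 were lower, with a median of -0.10, and the difference of the changes was called in 0 members, 8 being lower and 0 higher at an unadjusted p under 0.05 in limma's test. HSPA1B, an inducible HSP70 (chr6:31827735-31830255, plus strand), had 201 and 199 CPM at 48 h of KI696, against 292 and 287 CPM at 24 h, a log2 difference of -0.54 (SE 0.05, adjusted p = 0.000175). Its near-identical copy HSPA1A shares reads with it and changed by -0.36. DNAJB1, an HSP40 co-chaperone (chr19:14514770-14529770, minus strand), had 187 and 183 CPM, against 271 and 259 CPM at 24 h, a difference of -0.52 (SE 0.06, adjusted p = 0.000273). The constitutive HSPA8 had 2197 and 2220.5 CPM, against 2768 and 2912 CPM at 24 h, a difference of -0.36. All 3 lay lower in both 48 h libraries than in both 24 h libraries, and the calls of HSPA1B and DNAJB1 held under all 17 alternative settings. HSPB1, the small chaperone HSP27, went the other way, with 349 and 312 CPM at 48 h, against 272 and 243 CPM at 24 h, and rose by 0.36 (adjusted p = 0.00556). The list had 5 lower and 1 higher without library A of KI696 at 24 h, 4 and 0 without library B of KI696 at 24 h, 8 and 1 without either library of KI696 at 48 h taken singly, and 2 and 0 without the variance trend.

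HSF1 binds inverted repeats of a short unit, and a core of that element was searched in the RefSeq promoter windows around each start. The letters GAANNTTC, which read the same on both strands, were found in 6 of 19 members with an entry (31.6%) and in 6.87% of 27305 promoters. Windows of 80 bases are shown for 3 of the 6, with the match in capitals, so that 2 that fell can be read beside HSPB1, the only one of the 6 called higher.
HSPA1B (chr6:31827597-31827676, plus strand): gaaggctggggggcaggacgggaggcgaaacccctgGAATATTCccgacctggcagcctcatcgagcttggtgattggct
HSPA8 (chr11:123062307-123062386, minus strand): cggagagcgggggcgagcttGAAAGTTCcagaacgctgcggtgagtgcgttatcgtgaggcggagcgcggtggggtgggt
HSPB1 (chr7:76302455-76302534, plus strand): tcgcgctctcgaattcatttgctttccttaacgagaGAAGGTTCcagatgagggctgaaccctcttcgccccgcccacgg
Of the 6 members with these letters, HSPA1A, HSPA1B, HSPA8, DNAJA1 and CHORDC1 were called lower, and HSPB1 was called higher. The amino acid response list was searched in the same way for TGATGNAA on either strand, a composite element that ATF4 can bind with C/EBP partners. It was found in 5 of 28 members with an entry (17.9%) and in 3.67% of all promoters, among them ASNS, whose 80-base window is shown because its KI696 and DMSO changes diverged.
ASNS (chr7:97872433-97872512, minus strand): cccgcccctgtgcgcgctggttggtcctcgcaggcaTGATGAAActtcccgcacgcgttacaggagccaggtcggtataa
For the NRF2 list the antioxidant response element core TGACNNNGC, on either strand, was found in 6 of 27 members with an entry (22.2%) and in 13.6% of all promoters, and none of the 6 was called higher or lower at 48 h of KI696. Each match is a description of the letters, not a site in use.

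Mitosis genes were called lower in part with KI696, and in 10 of 49 the KI696 change was called higher than the DMSO change. Of 49 tested members 15 were lower and 0 higher at 48 h of KI696 than at 24 h, with a median change of -0.13, and 1 was higher and 21 lower at an unadjusted p under 0.05 in limma's test. With DMSO 46 of the 49 were lower, with a median of -0.50, and the difference of the changes had a median of 0.33. CCNB2, a mitotic cyclin, had 172 and 176 CPM at 48 h of KI696, against 170.1 and 179.6 CPM at 24 h, and with DMSO 133 and 124 CPM at 48 h, against 182 and 181 CPM at 24 h. Its KI696 libraries overlapped between times and its DMSO libraries did not, and the changes differed by 0.49 (adjusted p = 0.0231). CDC20, the activator of the anaphase-promoting complex, had a difference of 0.46 (adjusted p = 0.0285), and CCNB1, another mitotic cyclin, of 0.50 (adjusted p = 0.0455). The 10 called differences came to 0 without library A or library B of KI696 at 24 h and without library A or library B of DMSO at 24 h, and were 24 without library A of DMSO at 48 h. With median-ratio scaling they were 5.

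MKI67, the proliferation marker Ki-67 (chr10:128096659-128126385, minus strand), fell in both treatments. It had 152 and 155 CPM at 48 h of KI696, against 229 and 234 CPM at 24 h, a log2 difference of -0.59 (adjusted p = 0.0036), and with DMSO 148 and 109.8 CPM at 48 h, against 200.3 and 204 CPM at 24 h. The changes differed by 0.07 (adjusted p = 0.864). Without library B of KI696 at 24 h the KI696 change was -0.58 and not called, and the list then had no call in either direction. It had 4 lower without library A of KI696 at 24 h or without library A of KI696 at 48 h. Of 48 DNA replication genes 4 rose and 2 fell with KI696, a share near those of all genes (8.38% and 3.61%). The 4 included CDT1, which loads the replicative helicase (0.34), and TK1, thymidine kinase (0.27), whose changes exceeded those with DMSO by 0.51 and 0.61. Without library B of KI696 at 24 h CDT1 was 0.32 and TK1 0.28, neither called, and TK1 was 0.26 without library A of KI696 at 24 h and 0.24 without library A of KI696 at 48 h, again not called.

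**Figure D4:**
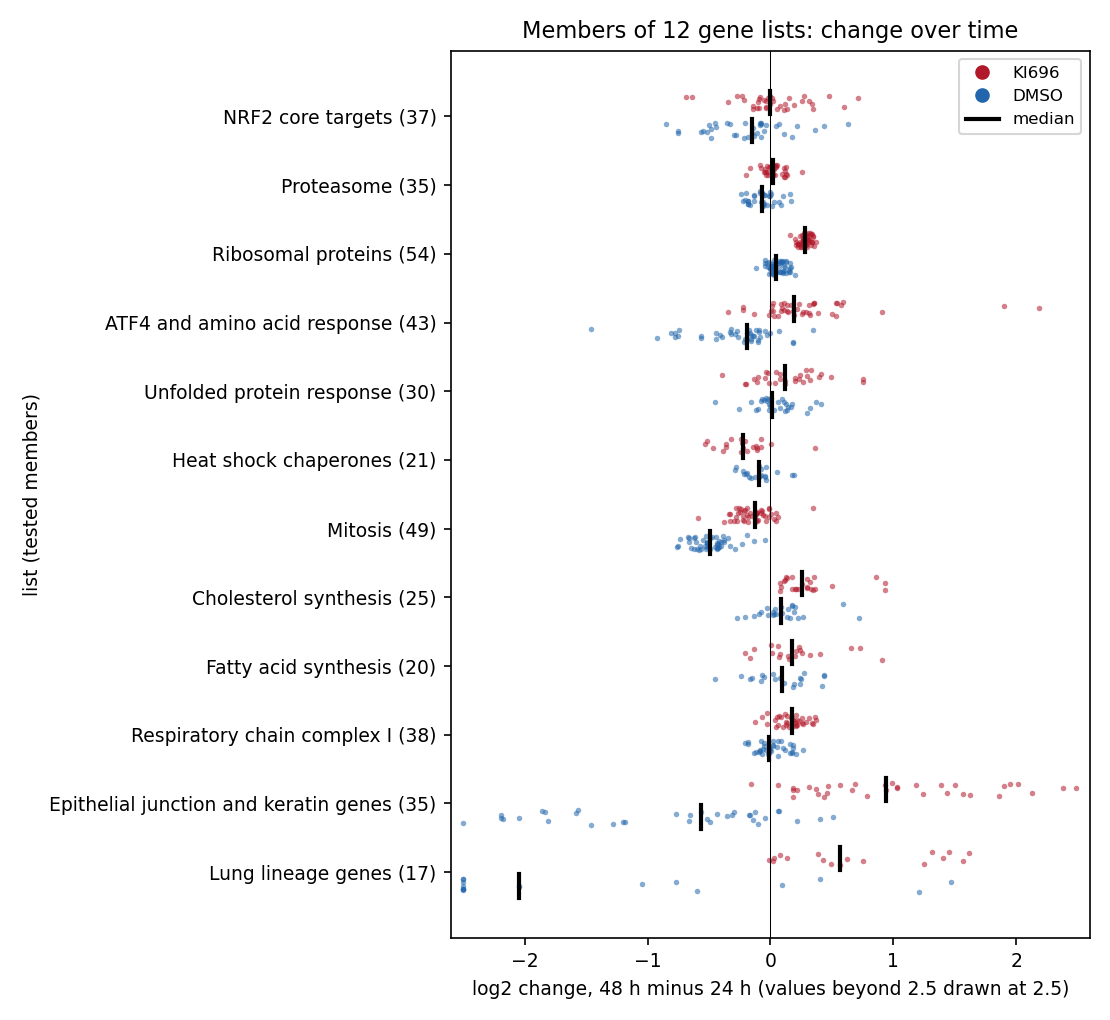
Change from 24 to 48 h of the tested members of 12 gene lists, in log2 units, with KI696 in red (upper row of each list) and DMSO in blue (lower row); black bars are medians and values beyond 2.5 are drawn at 2.5. Ribosomal protein genes cluster at a median of 0.28 with KI696, and mitosis genes lie further below 0 with DMSO (median -0.50) than with KI696 (median -0.13).

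Part of the cholesterol and fatty acid synthesis lists rose. Of 25 cholesterol synthesis genes 10 were higher and 0 lower at 48 h of KI696, beside 8.38% and 3.61% of all genes. All 25 changes were positive, and the median was 0.25. At an unadjusted p under 0.05 in limma's test 16 were higher and 0 lower, and with DMSO 2 were higher and the median was 0.08. SREBF2, the master regulator of the pathway (chr22:41833079-41907308, plus strand), had 209 and 201 CPM at 48 h, against 151 and 138 CPM at 24 h, a log2 difference of 0.50 (SE 0.07, adjusted p = 0.000992). The 48 h libraries of SREBF2 lay above its 24 h libraries. The difference from the DMSO change was called in 1 member, INSIG1, which holds SREBP in the endoplasmic reticulum, at 0.60 (adjusted p = 0.0403). The 10 calls came to 1 without library B of KI696 at 24 h, 4 without library A of KI696 at 48 h, 6 without library A of KI696 at 24 h or library B of KI696 at 48 h, and 0 without the variance trend.

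Of 20 fatty acid synthesis genes 8 were higher and 0 lower with KI696, beside 8.38% and 3.61% of all genes. The counts were also 8 and 0 at an unadjusted p under 0.05 in limma's test. With DMSO 6 were higher and 1 lower, beside 5.29% and 4.35% of all genes. FADS2, a fatty acid desaturase, had 93.9 and 85.6 CPM at 48 h of KI696, against 61.1 and 52.6 CPM at 24 h, a difference of 0.66 (adjusted p = 0.000812), and with DMSO the difference was 0.42. SCD, which makes monounsaturated fatty acids, had 1564 and 1550.2 CPM, against 1240.5 and 1246 CPM at 24 h, a difference of 0.32, and 0.43 with DMSO. Both rose with compound and with vehicle. SCD was 0.33 and not called without library B of KI696 at 24 h. PDK4, a kinase that inhibits pyruvate dehydrogenase (chr7:95583499-95596491, minus strand), had 16.0 and 16.7 CPM at 48 h of KI696, against 8.08 and 7.13 CPM at 24 h. The difference was 1.08 (SE 0.12, adjusted p = 0.00031), and it exceeded the DMSO change by 0.83 (adjusted p = 0.0455).

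Subunits of respiratory chain complex I had a median change of 0.17 with KI696 and -0.01 with DMSO. Of the 38 tested, 9 were higher and 0 lower with KI696, beside 8.38% and 3.61% of all genes. The counts were 18 and 0 at an unadjusted p under 0.05 in limma's test. NDUFB8 had 197 and 207 CPM at 48 h, against 169.9 and 150.2 CPM at 24 h, a difference of 0.34 (adjusted p = 0.00717). The 9 calls came to 0 without library B of KI696 at 24 h, where NDUFB8 was 0.25, to 1 without library A of KI696 at 48 h, to 4 without library A of KI696 at 24 h and to 5 with median-ratio or quantile scaling. Proteasome subunits, several of which NRF2 can induce, gave a contrast in precision: all 35 had 95% intervals within 0.5 log2 units of 0, and the median change was 0.02.

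Of 30 unfolded protein response genes 10 were higher and 1 was lower with KI696, beside 8.38% and 3.61% of all genes. Of the 30 changes 20 were positive, and the median was 0.12. With DMSO 3 were higher and 0 lower, 9 and 0 at an unadjusted p under 0.05 in limma's test. CALR, the lectin chaperone calreticulin (chr19:12938578-12944489, plus strand), had 1130.3 and 1102 CPM at 48 h of KI696, against 797 and 793 CPM at 24 h, a difference of 0.49 (SE 0.05, adjusted p = 0.000189), and 0.30 with DMSO. PDIA4, a disulfide isomerase, had 295 and 276 CPM, against 212 and 223 CPM at 24 h, a difference of 0.39. Neither gene overlapped between times, and the call of CALR held under all 17 alternative settings.

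Genes of antioxidant and NADPH metabolism outside the core NRF2 list moved in both directions. GPX1, a glutathione peroxidase, had 142 and 122 CPM at 48 h of KI696, against 215 and 189.9 CPM at 24 h, and fell by 0.61 log2 units (adjusted p = 0.000617). GPX4, which reduces lipid peroxides, had 229.7 and 210.0 CPM, against 173 and 165 CPM at 24 h, and rose by 0.38 (adjusted p = 0.00403). The peroxidases thus moved apart while neither overlapped between times, and GPX4 was 0.35 and not called without library B of KI696 at 24 h. IDH1, a cytosolic source of NADPH, had 127 and 122 CPM, against 95.2 and 94.7 CPM at 24 h, a difference of 0.39 (adjusted p = 0.00261) that exceeded the DMSO change by 0.42 (adjusted p = 0.0472). Beside 8.38% higher and 3.61% lower among all genes, 4 of 36 glutathione genes rose and 2 fell, a share not far from that background. Of 20 pentose phosphate and NADPH genes 4 rose and 0 fell, 6 and 0 at an unadjusted p under 0.05 in limma's test.

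Matrix and growth-signal genes rose and fell within the same lists. TIMP3, a matrix-bound inhibitor of metalloproteinases (chr22:32801701-32863043, plus strand), had 719.6 and 691 CPM at 48 h of KI696, against 358 and 339 CPM at 24 h, a difference of 1.02 (SE 0.07, adjusted p = 2.23e-05). With DMSO TIMP3 had 2033 and 2449.7 CPM at 48 h, against 765 and 759.9 CPM at 24 h, a larger rise of 1.55, and the difference of -0.53 was called (adjusted p = 0.0352). Of the 36 extracellular matrix genes 4 rose and 5 fell with KI696, whereas with DMSO 10 rose and 1 fell. Over all genes 8.38% rose and 3.61% fell with KI696, and 5.29% rose and 4.35% fell with DMSO. CTGF and CYR61, matricellular proteins that YAP drives, had 46.0 and 50.5 CPM and 33.4 and 26.3 CPM at 48 h of KI696, against 23.4 and 24.2 CPM and 14.6 and 14.4 CPM at 24 h. Both rose with KI696, by 1.01 and 1.02 (adjusted p = 7.89e-05 and 0.000506). They differed with DMSO, where the log2 difference was 1.18 for CTGF and 0.01 for CYR61, and the difference of the changes was called for CYR61 (1.01, adjusted p = 0.0204) and was -0.17 for CTGF. SNAI2, a transcriptional repressor of epithelial genes, had 23.1 and 23.1 CPM at 48 h, against 39.8 and 41.6 CPM at 24 h, a difference of -0.81 (adjusted p = 0.00111), and ID2, an inhibitor of helix-loop-helix factors, had 23.7 and 24.2 CPM, against 38.6 and 37.8 CPM at 24 h, a difference of -0.67. Both fell without overlap between times. With DMSO SNAI2 changed by -0.45, also called, and ID2 by -0.22, not called. Their differences of the changes, -0.36 and -0.45, were not called. Of the 19 tested genes of the mesenchymal list that holds SNAI2, 2 rose and 2 fell with KI696. TCF4 (0.48) and WNT5A (0.66) rose, and PRRX1 (-0.44) fell with SNAI2.

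Epithelial and lung lineage lists followed library A of KI696 at 48 h. The mean of the 35 tested epithelial genes was 4.33 and 2.66 log2 CPM at 48 h of KI696, against 2.29 and 2.67 log2 CPM at 24 h, so library A lay above and library B level with the 24 h libraries. Of the 35, 6 were called higher, with a median change of 0.94. Without library A of KI696 at 48 h 1 was called and the median was 0.21, and without library B of KI696 at 48 h 24 were called and the median was 1.90. None was called without library A or library B of KI696 at 24 h, while 18 were higher and 1 lower at an unadjusted p under 0.05 in limma's test on all libraries. Lung lineage genes had means of 2.57 and 0.12 log2 CPM at 48 h, against 0.58 and 0.68 log2 CPM at 24 h, and their median change of 0.56, fitted on values with a floor of 0.242 CPM, was -0.30 without library A of KI696 at 48 h and 1.64 without library B. NKX2-1, the lung lineage factor, had 12.8 and 1.16 CPM at 48 h, against 0.857 and 2.14 CPM at 24 h. FOXA2, a forkhead factor of foregut epithelium, was the lung gene called higher, with 50.5 and 53.7 CPM at 48 h, against 32.9 and 37.5 CPM at 24 h, a difference of 0.56 (adjusted p = 0.00421), which was 0.47 and not called without library A of KI696 at 24 h. FOXA2 did not differ between libraries A and B in the way the list did. What set library A apart was not tested.

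**Figure D5:**
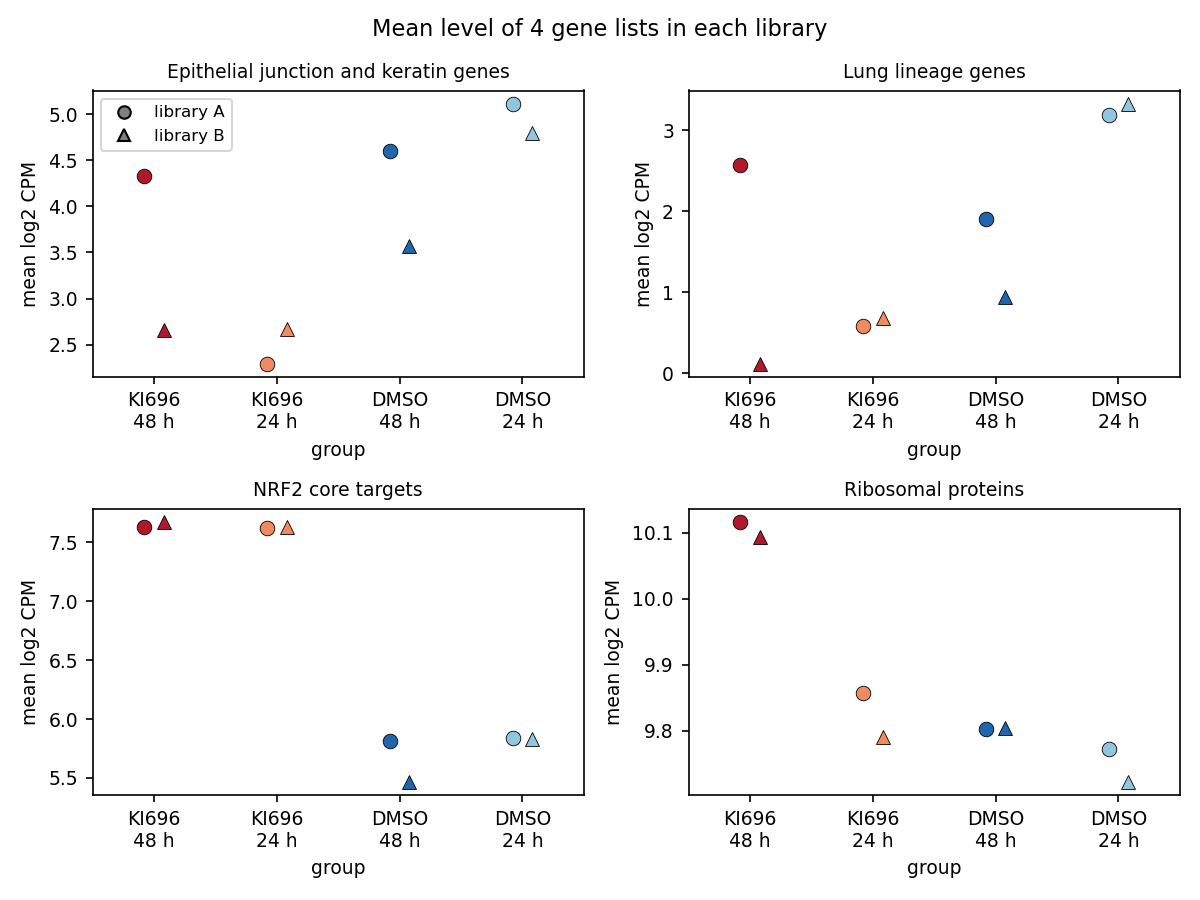
Mean log2 CPM of the tested members of 4 gene lists in each of the 8 libraries, each panel on its own scale; circles are library A and triangles library B. The epithelial list stands at 4.33 and 2.66 in the KI696 48 h libraries, while the ribosomal list stands at 10.12 and 10.09, against 9.86 and 9.79 in the KI696 24 h libraries.

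The most stable calls were collected last. Of the 1107 genes called higher, 70 (6.32%) were called higher under all 17 alternative settings, and of the 477 called lower, 14 (2.94%) were. Of these, 48 of the 70 and 9 of the 14 were also called in the same direction with DMSO. Those higher included FABP4, AGR2, TIMP3, CTGF, CYR61, PDK4 and CALR, described above, and RHOB, a small GTPase of endosomes, with 66.0 and 72.0 CPM at 48 h of KI696, against 31.0 and 35.5 CPM at 24 h, a difference of 1.05 (1.00 with DMSO). H6PD, which makes NADPH inside the endoplasmic reticulum, had 62.1 and 66.3 CPM, against 31.4 and 34.8 CPM at 24 h, a difference of 0.95 (0.77 with DMSO). NNMT, a nicotinamide methyltransferase, had 7.99 and 5.62 CPM, against 1.71 and 1.71 CPM at 24 h, a difference of 1.83 (0.62 with DMSO). RHOB, H6PD and NNMT rose without overlap and were chosen after their values were seen. Those lower included DNER, LRRC17, IGFBP7, PFKFB4, SNAI2, ID2, HSPA1B and DNAJB1, and BAMBI, a decoy receptor of TGF-beta signalling that was likewise chosen after its values were seen. BAMBI had 18.2 and 18.7 CPM at 48 h of KI696, against 29.5 and 28.7 CPM at 24 h, and with DMSO 26.6 and 26.9 CPM at 48 h, against 22.9 and 23.1 CPM at 24 h. It fell by 0.65 log2 units with KI696, and the changes differed by -0.86 (adjusted p = 0.0176).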

How the data were processed

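Poly(A) RNA of Calu-6 cells was sequenced in 8 libraries, as single reads on an Illumina NextSeq, per the labels. The deposited table holds log2 values made by the authors with R 4.0.3 and edgeR on hg38, per the submitters' processing notes. Aligner, counter, annotation and strand setting: not given in the sources used here. These values were taken as log2 CPM with a small added count, since they share a floor of 0.242 CPM and their antilogs step in whole reads, from which depth was recovered. Low genes are compressed toward this floor. Of 14556 genes, 21 whose symbols had become calendar dates were left out.

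The log2 values went into limma 3.58.1 under R 4.3.3, with 1 mean for each of the 4 groups and a variance that could follow expression level. Tests were moderated and two-sided, p was adjusted over all 13213 genes by Benjamini-Hochberg, and fold changes are on the deposited log2 scale. The test was checked on simulated data with independent normal noise of the same spread in each group. The real spread was unequal, with a chi-square per degree of freedom of 3.64 in KI696 at 48 h, against 1.65 at 24 h. The check does not cover such unequal spread. The 3 contrasts were the change with KI696, the change with DMSO and their difference. Named genes were the 10 largest called changes each way with a mean of at least 5 CPM and no overlap, the 5 largest differences each way, 10 NRF2 pathway genes and up to 4 genes of each list. Other genes named were chosen after their values were seen, and a few results are not reported here. The genes and lists were chosen with earlier results of these data known, so lists are given as counts and medians with no test of their own. Alternatives were another filter, pseudocount or scaling, no variance trend, library weights, each treatment alone and each library left out. Symbols of 12266 genes (92.8%) matched GENCODE 29 for coordinates and 9678 (73.2%) had a RefSeq promoter (GRCh38.p14). Paralogs such as HSPA1A and HSPA1B, AKR1C1 to AKR1C3, and ribosomal genes with pseudogenes may share reads. Intervals and floors cover the spread of these libraries or counting error only.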

Additional observations from a re-analysis of the deposited data

Results flagged for a closer look

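Of the genes given by rule, 10 were chosen by limma's test of the difference between the KI696 and DMSO changes. They had the 5 largest called differences each way at a mean of at least 5 CPM. All 10 thus differ by choice. Other genes given by rule, among them DDIT4, AGR2 and NQO1, also had called differences. Groups of 2 libraries allow no test for an outlying library. In 5 genes the KI696 change was the higher. The difference was 1.90 for TSC22D3, a glucocorticoid-induced leucine zipper protein, which had 19.5 and 11.04 CPM at 48 h of KI696, against 9.92 and 7.13 CPM at 24 h, and 16.5 and 10.5 CPM at 48 h of DMSO, against 27.3 and 30.2 CPM at 24 h. The KI696 change of TSC22D3 alone was not called (adjusted p = 0.0639). It was 1.83 for TMEM156, 1.79 for RIMS3 (a presynaptic protein, adjusted p = 0.00975), 1.54 for ARHGEF16 (adjusted p = 0.0176) and 1.52 for KIAA1522 (adjusted p = 0.0182).

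In the other 5 the KI696 change was the lower. The difference was -1.39 for IGFBP7, -1.38 for LRRC17 and -1.20 for HIST1H2BK, a histone H2B gene with 21.9 and 16.3 CPM at 48 h of KI696, against 30.7 and 33.8 CPM at 24 h, and 54.7 and 53.8 CPM at 48 h of DMSO, against 38.5 and 41.9 CPM at 24 h. It was -1.11 for APOE, a lipoprotein component, with 16.5 and 13.4 CPM at 48 h of KI696, against 19.8 and 17.8 CPM at 24 h, and 60.4 and 55.4 CPM at 48 h of DMSO, against 34.4 and 32.9 CPM at 24 h. It was -0.90 for LTBP2, a matrix protein of the latent TGF-beta binding family, with 132 and 151 CPM at 48 h of KI696, against 204 and 189 CPM at 24 h, and 361 and 430.2 CPM at 48 h of DMSO, against 294 and 292 CPM at 24 h. None of the 10 was called with no variance trend, without library A of KI696 at 24 h or without library B of KI696 at 24 h. TMEM156 kept its call under each other alternative, and the other 9 lost it also without library A or library B of DMSO at 24 h.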

How the results depend on the processing

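Of 171 single-gene values, none of the 145 called ones changed sign under any alternative run, while 7 of those not called did. The genes were chosen by call, lack of overlap between times or small p. A stable sign of the called ones thus follows in part from that choice and is no separate check. Without library A of KI696 at 48 h the KI696 change was -0.20 for NKX2-1, -0.28 for SLC34A2, -0.22 for SFTA3, -0.04 for COL1A1 and 0.06 for GCLC, against 1.40, 1.61, 1.56, 0.37 and -0.00 as reported. With quantile scaling it was -0.02 for NQO1 and -0.11 for TXNRD1, against 0.19 and 0.02. Of 135 genes given as called between the KI696 times, 114 lost the call with no variance trend and 16 with quantile scaling. Leaving out any single KI696 library cost more of these calls than quantile scaling did, most of all library B of KI696 at 24 h. The sizes of the counts also moved. For the change with KI696, genes higher came to 707 with quantile scaling and 124 with no variance trend, and 215 to 1322 with 1 library left out, against 1107 as reported. Genes lower came to 28 with no variance trend and 43 to 623 with 1 library left out, against 477. For the change with DMSO, genes higher came to 92 with no variance trend and 198 to 849 with 1 library left out, against 699, and genes lower to 61 and to 118 to 796, against 575. For the difference of the changes, genes higher came to 4 with no filter on low values, 150 with log2 of CPM plus 5, 140 with library weights and 0 with no variance trend, and 1 to 455 with 1 library left out, against 89. Genes lower came to 1 with no filter, 40 with log2 of CPM plus 5, 35 with median-ratio scaling, 36 with library weights and 0 with no variance trend, and 0 to 140 with 1 library left out, against 23. Beside the counts of 0 with no variance trend, limma's test had 1167 genes higher and 514 lower at an unadjusted p under 0.05. The cause of these shifts was not tested, except that a left-out library leaves fewer degrees of freedom, and the lone sample of its group is then assumed to vary like the others. Of the values for single genes and lists, 4958 were classed as unchanged. There a gene kept its called or uncalled status, or a list count stayed within a set factor of the reported one. List counts that stayed at 0 and uncalled changes that turned sign are among these. Single genes lost a call in 471 cases and gained one in 27, and a list count left the set range in 839. No paired analysis was possible because the column headers carry no replicate number, so the planned replicate block was not run. With 2 libraries a group, 3 reads correspond to up to 0.428 CPM, and calls among genes of a few CPM are the least certain.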

Other observations

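Over all genes 8.38% rose and 3.61% fell with KI696, and 5.29% rose and 4.35% fell with DMSO. Of 42 interferon-stimulated genes 8 rose and 1 fell between 24 and 48 h of KI696, with a median change of 0.60. With DMSO 9 rose, with a median of 0.50. The list mean was 3.02 (library A) and 2.18 (library B) log2 CPM at 48 h of KI696, against 1.90 and 1.88 at 24 h. More of the rise thus lay in library A. BST2, the virion tether tetherin, had 14.4 and 7.17 CPM at 48 h of KI696, against 3.92 and 2.42 CPM at 24 h, a difference of 1.65 (adjusted p = 0.00393), which was 1.33 and not called without library B of KI696 at 24 h. Of 27 hypoxia targets 9 rose and 1 fell with KI696 (median 0.30), and 6 rose and 2 fell with DMSO. Of 35 AP-1 and immediate early genes 12 rose and 1 fell with KI696 (median 0.28), and 9 rose and 1 fell with DMSO, and JUND, an AP-1 subunit, had differences of 0.63 with KI696 and 0.72 with DMSO. Of 27 genes of FoxO and insulin-like signalling 9 rose and 1 fell with KI696 (median 0.28), and 7 rose with DMSO (median 0.29). In these lists too library A had the higher mean at 48 h of KI696. The hypoxia list had 4.91 (A) and 4.58 (B) log2 CPM, against 4.41 and 4.46 at 24 h. The AP-1 list had 5.07 and 4.82, against 4.69 and 4.66 at 24 h. The FoxO list had 4.81 and 4.47, against 4.315 and 4.27 at 24 h.

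Of 28 p53 targets 5 rose and 1 fell with KI696, beside 8.38% and 3.61% of all genes. With DMSO 1 rose and 0 fell, beside 5.29% and 4.35% of all genes. The difference of the changes was called in 0 of the 28. GDF15, a stress-induced cytokine, had 29.2 and 30.7 CPM at 48 h of KI696, against 17.6 and 15.1 CPM at 24 h, a difference of 0.86 (adjusted p = 0.00146), and CDKN1A, the CDK inhibitor p21, had 15.1 and 12.2 CPM, against 7.35 and 8.84 CPM at 24 h, a difference of 0.74, which was 0.61 and not called without library A of KI696 at 24 h. With DMSO GDF15 changed by 0.38 and CDKN1A by 0.43, neither called. Of 40 lysosome genes 3 rose and 1 fell with KI696, near the shares of all genes, while 12 rose and 1 fell with DMSO. The difference of the changes was not called in any member, 3 being higher and 7 lower at an unadjusted p under 0.05 in limma's test. Of 14 transcripts that serve as signs of RNA quality or nuclear retention 2 fell with KI696, and their mean was 5.60 and 5.77 log2 CPM at 48 h of KI696, against 5.58 and 5.68 log2 CPM at 24 h.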
